A study of Homo sapiens with 6 samples.

Results

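The AP-1 subunit genes are a set of 10 named genes encoding basic leucine zipper (bZIP) proteins: JUN, JUNB and JUND of the JUN family, FOS, FOSB, FOSL1 and FOSL2 of the FOS family, and ATF3, BATF3 and MAFF. They were taken by gene name from a table of 58302 genes, and all 10 were found in it. The set was drawn up with earlier results of these data known. The cells were ME180, a human cervical cancer line of epithelial morphology. Cultures received an siRNA against SGK1 (siSGK1, 3 libraries, replicates 2, 3 and 4) or a control siRNA (siControl, 3 libraries, replicates 2, 3 and 4). PolyA RNA was sequenced 48 h later. SGK1 is a serum- and glucocorticoid-induced serine/threonine kinase. By the labels the groups differ in the siRNA alone, all libraries come from a single cell line, and the submitters describe them as biological repeats. The sources used here do not state the siRNA sequences.

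AP-1 is a dimer. JUN proteins pair with each other or with FOS proteins through their leucine zippers, while FOS proteins bind DNA stably only as partners of JUN proteins. The dimers recognise the sequence TGACTCA, and dimers that contain ATF proteins prefer the cyclic AMP response element TGACGTCA. FOS and JUN are immediate early genes, switched on within minutes by growth factor and stress signals that run through MAP kinases, and in stratified epithelia AP-1 acts on genes of proliferation, invasion and terminal differentiation.

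The siSGK1 libraries held 28405647 to 35242643 reads assigned to genes, against 27262794 to 27874948 in the siControl libraries. SGK1 itself measured 1.58, 1.70 and 1.81 FPKM (fragments per kilobase of gene, per unit of a library size set by the authors) in siSGK1 and 3.91, 4.27 and 4.17 FPKM in siControl, 41.2% of the control mean (log2 change -1.07, SE 0.07, limma adjusted p = 1.88e-05). The library size implied by the FPKM was 1.04 to 1.09 times the assigned reads in siSGK1 and 0.952 to 0.967 times in siControl, so the deposited scaling differs from read depth and does so by group. The cells carried epithelial markers, whose summed level over 7 genes was lower in siSGK1, at 3626 to 4236 FPKM, against 5902 to 6170 FPKM in siControl. KRT14, a basal keratin, averaged 541.2 FPKM in siSGK1 and 1388 FPKM in siControl, and KRT5, its partner keratin, 2920 FPKM in siSGK1 and 3961 FPKM in siControl. KRT8 averaged 312.9 FPKM in siSGK1 and 428.7 FPKM in siControl, and KRT18 133.2 FPKM in siSGK1 and 143.1 FPKM in siControl. EPCAM averaged 36.8 FPKM in siSGK1 and 36.9 FPKM in siControl, and CDH1 averaged 43.4 FPKM in siSGK1 and 43.1 FPKM in siControl. TP63 averaged 38.6 FPKM in siSGK1 and 38.6 FPKM in siControl. Of the markers of other cell types, the summed level of the leukocyte genes was 0.138 to 0.288 FPKM in siSGK1 and 0.0808 to 0.181 FPKM in siControl, that of the fibroblast genes was 4.85 to 5.72 FPKM in siSGK1 and 4.70 to 5.25 FPKM in siControl, nearly all of it COL1A1, and that of the endothelial genes was 0.211 to 0.325 FPKM in siSGK1 and 0.200 to 0.248 FPKM in siControl, all of it CDH5, with PECAM1 listed at 0.

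Among the AP-1 subunit genes, JUN and FOS were higher in siSGK1, while FOSL2 and MAFF were lower in the deposited FPKM (with TPM scaling FOSL2 turned to a log2 change of 0.02 and MAFF, at -0.19, was no longer called). JUN was 1.63 times and FOS 1.53 times the control mean, while FOSL2 was 0.878 times and MAFF 0.745 times that mean. Of the 10 members, 8 had a mean of at least 1 FPKM over the 6 libraries and were tested. FOSB and BATF3 lay below that level. Calls were made with limma on log2(FPKM + 0.5) at a Benjamini-Hochberg adjusted p below 0.05 over all 11945 tested genes, so fold changes understate those of low genes. The test called 4 of the 8, 2 higher and 2 lower. Over all tested genes it called 40.6%, with 17.9% higher and 22.7% lower, and 4 of 8 is near that background. The groups did not overlap for 5 of the 8 tested members, against 53.4% of all tested genes. The median log2 change was -0.07 for the tested members and -0.006 for all tested genes. In bulk libraries, a change in the share of cells that express a gene and a change in its RNA per cell cannot be told apart.

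**Figure D1:**
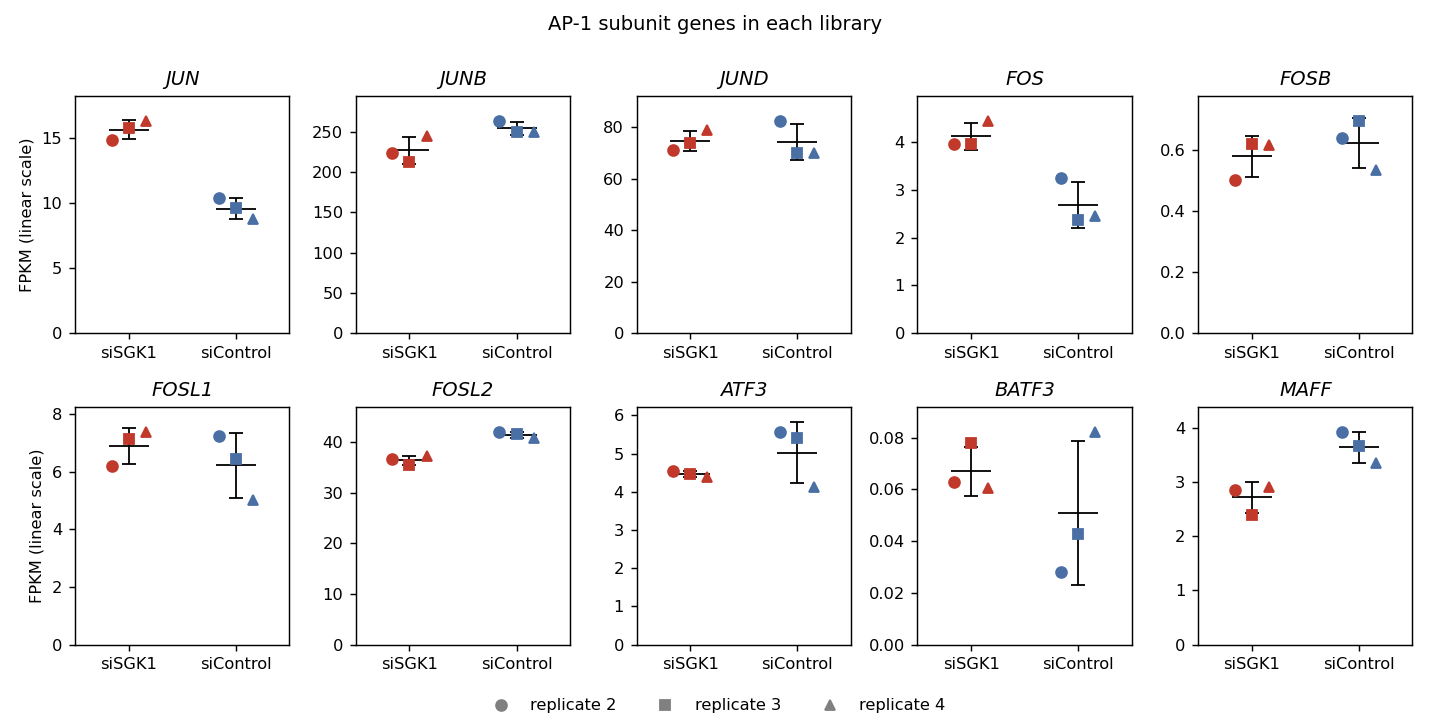
FPKM (linear axis from 0) of each AP-1 subunit gene in siSGK1 (left) and siControl (right) libraries, with bars for mean and SD (n = 3) and symbols for the replicate number. JUN and FOS sit higher in every siSGK1 library, at 14.8 to 16.3 and 3.95 to 4.43 FPKM, and JUNB, FOSL2 and MAFF sit lower in every one, in FPKM as deposited.

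The promoters of the 4 called subunits are shown because they are the members whose level differed, with JUN and FOS higher and FOSL2 and MAFF lower. Each window, from RefSeq on GRCh38.p14, runs from 250 bases before to 50 after a start annotated by RefSeq, on the gene's strand. The windows lie at chr1:58783998-58784297 (minus strand) for JUN, chr14:75278578-75278877 (plus) for FOS, chr2:28392608-28392907 (plus) for FOSL2 and chr22:38201744-38202043 (plus) for MAFF. For JUN, FOSL2 and MAFF the whole window lies inside the gene span given below, so that start differs from the outer end of the gene. Capitals mark matches on either strand to the AP-1 site TGACTCA, the cyclic AMP response element TGACGTCA, the JUN promoter variant TGACATCA or the CArG box bound by serum response factor.
JUN: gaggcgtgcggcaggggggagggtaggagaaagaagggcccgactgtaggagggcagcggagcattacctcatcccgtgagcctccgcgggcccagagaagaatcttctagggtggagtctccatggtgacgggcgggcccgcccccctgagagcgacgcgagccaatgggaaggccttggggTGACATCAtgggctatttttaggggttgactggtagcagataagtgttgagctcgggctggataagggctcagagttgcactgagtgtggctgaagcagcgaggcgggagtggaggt
FOS: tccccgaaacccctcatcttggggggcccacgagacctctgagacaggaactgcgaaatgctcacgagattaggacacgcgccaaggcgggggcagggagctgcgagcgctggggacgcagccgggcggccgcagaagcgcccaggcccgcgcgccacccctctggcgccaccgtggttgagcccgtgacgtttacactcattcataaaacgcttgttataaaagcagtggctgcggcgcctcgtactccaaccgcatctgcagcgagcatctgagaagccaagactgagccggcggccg
FOSL2: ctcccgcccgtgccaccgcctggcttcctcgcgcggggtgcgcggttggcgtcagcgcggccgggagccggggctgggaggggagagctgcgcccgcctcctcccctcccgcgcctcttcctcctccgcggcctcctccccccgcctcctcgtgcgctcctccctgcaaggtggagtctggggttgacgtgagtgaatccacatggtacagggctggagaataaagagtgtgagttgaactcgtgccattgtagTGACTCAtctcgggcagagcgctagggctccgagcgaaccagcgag
MAFF: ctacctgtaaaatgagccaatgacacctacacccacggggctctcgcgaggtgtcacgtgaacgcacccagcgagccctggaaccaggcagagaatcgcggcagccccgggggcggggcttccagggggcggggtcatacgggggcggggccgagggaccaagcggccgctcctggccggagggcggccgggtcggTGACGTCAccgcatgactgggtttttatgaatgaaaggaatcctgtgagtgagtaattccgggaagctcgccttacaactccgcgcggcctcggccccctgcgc

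Windows of 8 members were available, and 5 held a match to at least 1 of the 4 motifs. The share of all windows with any of the 4 was not computed, so this count has no background. TGACATCA was searched as the JUN promoter variant, so its match in JUN was known in advance. The JUN window has TGACATCA at -67 to -60, counted with the RefSeq start as 1, the place where JUN and ATF dimers are known to bind the gene's own promoter. ATF3 has the same letters at -123 to -116. The full cyclic AMP response element lies at -54 to -47 in MAFF and at -200 to -193 in JUND, and TGACTCA at 5 to 11 in FOSL2. The windows of FOS, JUNB and FOSB held none of the 4 motifs. Over 34943 windows of the same length, 4.96% held TGACTCA, 1.84% TGACGTCA, 2.61% TGACATCA and 1.3% a CArG box. Over the 12107 windows that match tested genes the shares were 3.53% for TGACTCA, 2.92% for TGACGTCA, 1.47% for TGACATCA and 1.1% for a CArG box. The FOS window held no match, so the 2 genes that rose could share none, and the 2 that fell held different motifs. Only exact letters inside these windows were searched, so sites farther upstream or with other letters are not covered.

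JUN, whose promoter is printed above with its TGACATCA element, encodes the subunit that activates transcription most strongly within its family. The gene (ENSG00000177606) lies on chromosome 1, 58780788 to 58784327, minus strand, in the table's coordinates, which are those of GRCh38. It measured 14.8, 15.7 and 16.3 FPKM in siSGK1 replicates 2, 3 and 4, against 10.4, 9.60 and 8.75 FPKM in siControl replicates 2, 3 and 4. Every siSGK1 library lay above every siControl library. The means were 15.6 ± 0.74 FPKM in siSGK1 and 9.58 ± 0.83 FPKM in siControl (SD, n = 3 each), and the log2 change was 0.68 (SE 0.07, limma adjusted p = 0.000149). Between 1545 and 2114 reads per library lay behind the siSGK1 values and between 835 and 966 behind the siControl values.

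JUNB, often a weaker activator that can oppose JUN, was the most abundant subunit by FPKM. It measured 223.4, 212.2 and 245.0 FPKM in siSGK1, against 263.4, 250.2 and 249.4 FPKM in siControl. The groups did not overlap, but siSGK1 replicate 4 came close to the lowest controls. The log2 change of -0.17 (SE 0.06) missed the threshold narrowly (limma adjusted p = 0.0509). It was called without siSGK1 replicate 4 (log2 change -0.22, adjusted p = 0.018), and its sign depended on the scaling of the libraries, described further on. JUNB (chromosome 19, 12791496 to 12793315) shares 259 exonic bases with HOOK2 on the opposite strand (mean 6.39 FPKM), and since the strand setting of the counting is not stated, some of its reads may belong to that gene.

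JUND, the most constitutively expressed JUN protein, measured 71.2, 74.0 and 78.9 FPKM in siSGK1 and 82.4, 70.1 and 70.1 FPKM in siControl. The groups overlapped, with siControl replicate 2 highest of all. Its log2 change was 0.01, with a 95% interval of -0.15 to 0.17 (limma adjusted p = 0.906).

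FOS, the founding immediate early gene of its family, was low in level. The gene lies on chromosome 14, 75278774 to 75282230, plus strand. It measured 3.95, 3.96 and 4.43 FPKM in siSGK1, against 3.24, 2.36 and 2.45 FPKM in siControl. The groups did not overlap, and siControl replicate 2 stood above the other 2 controls. The means were 4.12 ± 0.28 FPKM in siSGK1 and 2.68 ± 0.48 FPKM in siControl, and the log2 change was 0.55 (SE 0.10, limma adjusted p = 0.00373), from 376 to 526 reads per siSGK1 library and 198 to 275 per siControl library.

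FOSL2 (FRA-2), which lacks the strong activation domain of FOS, was the most abundant FOS family gene. The gene lies on chromosome 2, 28392448 to 28417312, plus strand. It measured 36.7, 35.5 and 37.3 FPKM in siSGK1, against 42.0, 41.7 and 40.8 FPKM in siControl. Both groups were tight and did not overlap. The means were 36.5 ± 0.90 FPKM in siSGK1 and 41.5 ± 0.62 FPKM in siControl, and the log2 change of -0.19 (SE 0.04, limma adjusted p = 0.00767) was small beside those of JUN and FOS.

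FOSL1 (FRA-1), the family member most tied to invasive carcinoma cells, measured 6.20, 7.15 and 7.38 FPKM in siSGK1 and 7.25, 6.43 and 5.01 FPKM in siControl. The groups overlapped, and the 95% interval of its log2 change ran from -0.12 to 0.42 (limma adjusted p = 0.352). FOSB measured 0.502, 0.620 and 0.614 FPKM in siSGK1 and 0.638, 0.694 and 0.534 FPKM in siControl, from 80 to 125 reads per library. Fitted without a level filter, its log2 change was -0.06 (95% interval -0.31 to 0.20, limma adjusted p = 0.785).

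MAFF is a small MAF protein, which binds DNA but has no activation domain of its own and pairs with cap'n'collar factors such as NFE2L2. The gene lies on chromosome 22, 38200767 to 38216511, plus strand. It measured 2.86, 2.38 and 2.90 FPKM in siSGK1, against 3.92, 3.66 and 3.35 FPKM in siControl. All siSGK1 values lay below all siControl values. The means were 2.71 ± 0.29 FPKM in siSGK1 and 3.64 ± 0.28 FPKM in siControl, and the log2 change was -0.37 (SE 0.08, limma adjusted p = 0.00894), or -0.19 and not called with TPM scaling (limma adjusted p = 0.0595).

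ATF3, a stress-induced factor that often represses its targets, measured 4.55, 4.45 and 4.40 FPKM in siSGK1 and 5.56, 5.41 and 4.11 FPKM in siControl. The siSGK1 libraries lay close together, and siControl replicate 4 fell below all of them. The log2 change of -0.14 (95% interval -0.37 to 0.08) was not called (limma adjusted p = 0.28), but without siControl replicate 4 it was -0.27 and called (adjusted p = 0.0102). BATF3, known for its role in dendritic cells, had 2 to 7 reads per library, at 0.0627, 0.0779 and 0.0604 FPKM in siSGK1 and 0.0281, 0.0426 and 0.0820 FPKM in siControl, too few to show a difference at this depth (limma adjusted p = 0.634 without a level filter).

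**Figure D2:**
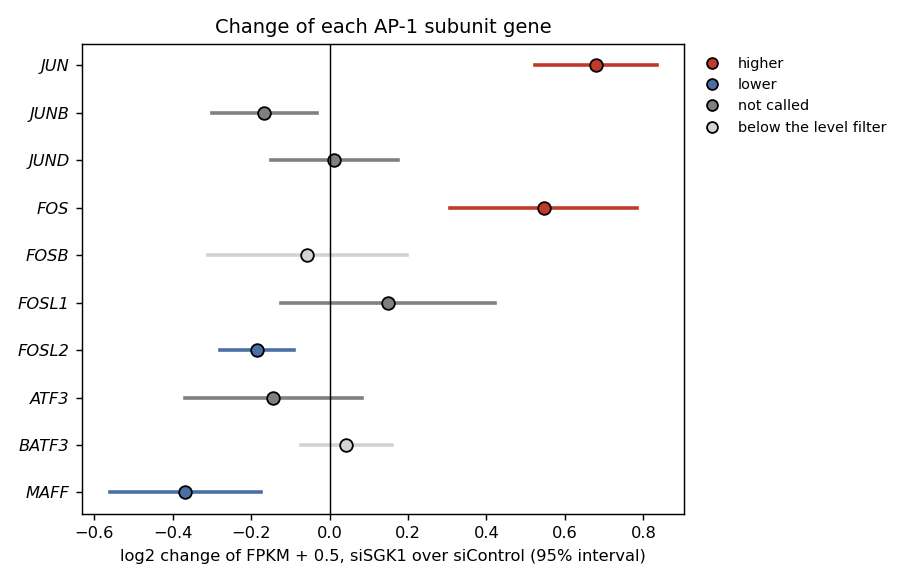
Log2 change of FPKM + 0.5, siSGK1 over siControl, with 95% intervals from limma; FOSB and BATF3, below the level filter, come from the fit without it. The intervals of JUN (0.52 to 0.83) and FOS (0.31 to 0.78) lie above 0, those of JUNB, FOSL2 and MAFF below it, and the other 5 cross it.

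FPKM is a level per length, so it allows the subunits to be ranked within a family. In the JUN family JUNB held 71.5% ± 1.1 of the summed FPKM in siSGK1 and 75.2% ± 1.1 in siControl, JUND 23.6% ± 0.82 in siSGK1 and 21.9% ± 1.1 in siControl, and JUN 4.93% ± 0.24 in siSGK1 and 2.83% ± 0.14 in siControl (SD, n = 3 each). The share of JUN did not overlap between groups, and neither did that of JUNB. The order JUNB, JUND, JUN held in all 6 libraries. The summed level of the family was 317.2 ± 20.2 FPKM in siSGK1 and 338.1 ± 15.7 FPKM in siControl, with overlapping groups.

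In the FOS family FOSL2 held 75.9% ± 1.4 of the summed FPKM in siSGK1 and 81.4% ± 2.3 in siControl. FOSL1 held 14.4% ± 1.1 in siSGK1 and 12.2% ± 1.7 in siControl, FOS 8.55% ± 0.32 in siSGK1 and 5.24% ± 0.77 in siControl, and FOSB 1.20% ± 0.13 in siSGK1 and 1.22% ± 0.13. in siControl The order FOSL2, FOSL1, FOS, FOSB was the same in every library. The shares of FOS and FOSL2 did not overlap between groups, those of FOSL1 and FOSB did, and the summed level was 48.1 ± 1.4 FPKM in siSGK1 and 51.1 ± 2.2 FPKM in siControl. RNA levels do not give the amounts of the proteins or of their dimers.

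**Figure D3:**
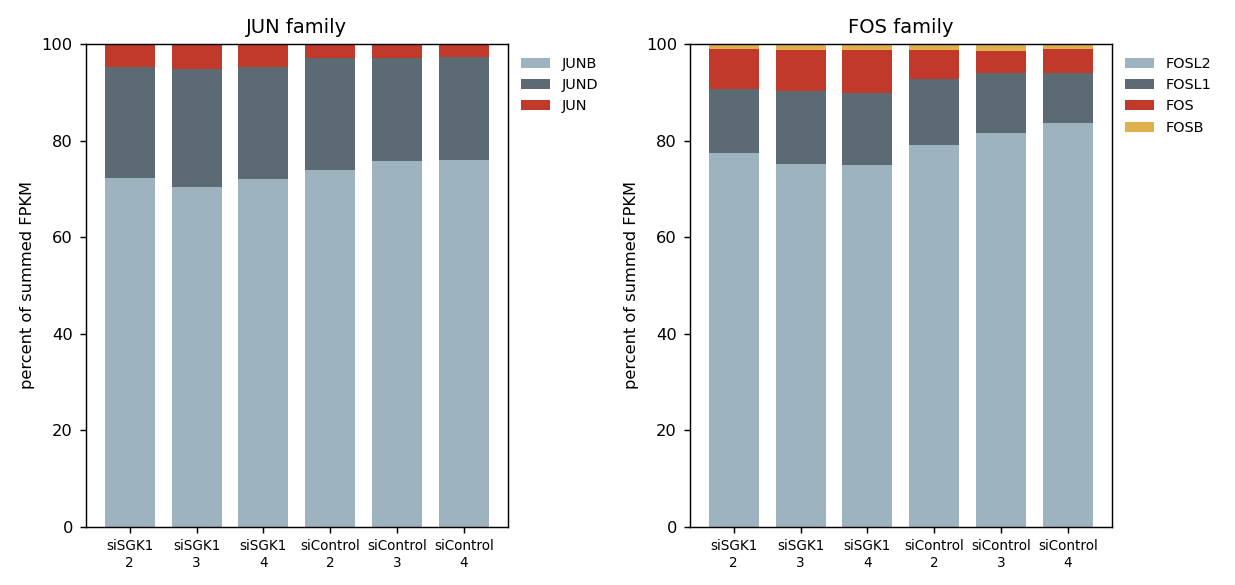
Share of each gene in the summed FPKM of the JUN family (left) and the FOS family (right), one bar per library, siSGK1 libraries first. JUN and FOS, in red, take 4.79% to 5.21% and 8.34% to 8.92% in siSGK1, against 2.67% to 2.92% and 4.60% to 6.09% in siControl.

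The direction of the smaller changes depended on how libraries were scaled. The deposited FPKM place the median gene at -0.006. Scaling by total reads moved that median to 0.12 and TPM scaling to 0.18, and of the genes called, 73.6% and 82.8% were then higher in siSGK1, where the figure was 44.2% as deposited. JUN and FOS were called higher under every scaling tried, with log2 changes of 0.68 to 0.88 and 0.54 to 0.72. MAFF stayed below 0 under all 4. FOSL2 lost its call with total-read scaling (log2 change -0.05) and turned to 0.02 with TPM scaling. Set against the median gene, FOSL2 lay 0.12 to 0.18 log2 units below it under all 4 scalings. JUNB turned to 0.001 under quantile normalization and to 0.04 under TPM scaling, and relative to the median gene it lay 0.01 below under quantile normalization and 0.14 to 0.16 below under the other 3.

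**Figure D4:**
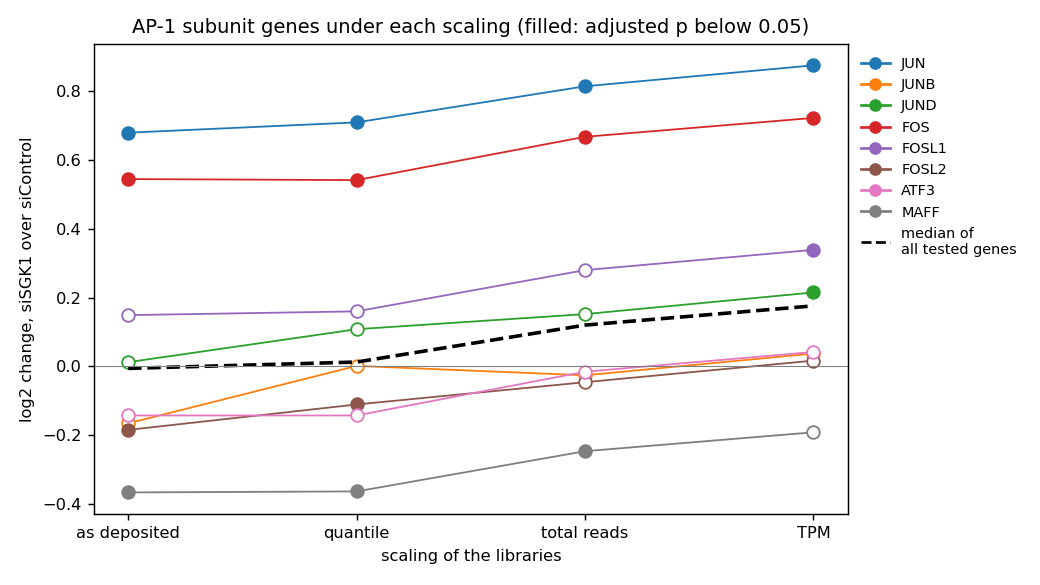
Log2 change of the 8 tested subunit genes (lines) as deposited, after quantile normalization, with total-read scaling and with TPM scaling; filled points have a limma adjusted p below 0.05 and the dashed line is the median of all tested genes. JUN and FOS stay filled and well above the median throughout, while FOSL2 and MAFF stay below it.

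Short interfering RNAs can also act on transcripts that match their seed. The 3' untranslated regions (GENCODE 29, longest per gene) were searched for 4 heptamers, which were picked because they went with changes in these same libraries and could not be tied to the siRNAs used. Of 10272 tested protein-coding genes, 8.51% held CTATGCA, 11.4% TATGCAA, 2.13% TCGGAGA and 2.45% CGGAGAA. The median log2 change was -0.082 with CTATGCA and -0.003 without it, and -0.026 with TATGCAA and -0.005 without it. It was 0.08 with TCGGAGA and -0.01 without it, and 0.073 with CGGAGAA and -0.01 without it. JUN, FOS and MAFF, like 8 of the 10 members, contained none of them. FOSL2, which fell as deposited, contained TCGGAGA. FOSB contained CGGAGAA. Of the list genes named further on, NFE2L2, JDP2, ELK4, PHLDA1, EZR, MMP1 and KRT1 contained at least 1 of the heptamers. Their part in any change was not tested.

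Genes around the subunits were followed in 7 lists, of 115 genes in all, of which 90 passed the level filter and were tested, 21 rose and 23 fell. The 48.9% called in the lists is near the 40.6% called among all tested genes. Among the other bZIP partners and competitors of AP-1, of 10 genes tested (14 listed) 5 fell and 1 rose, against 22.7% lower and 17.9% higher among all tested genes, with a median log2 change of -0.09. NFE2L2 (NRF2), the antioxidant response factor and a partner of MAFF, averaged 6.30 ± 0.09 FPKM in siSGK1 and 12.3 ± 0.40 FPKM in siControl (log2 change -0.92, SE 0.05, limma adjusted p = 8.92e-06). JDP2, a JUN-binding repressor, averaged 10.5 ± 0.31 FPKM in siSGK1 and 14.4 ± 0.26 FPKM in siControl (log2 change -0.43, adjusted p = 0.000188). MAF, a large MAF factor, averaged 3.53 ± 0.13 FPKM in siSGK1 and 5.35 ± 0.24 FPKM in siControl (log2 change -0.54, adjusted p = 0.000204). NFE2L2 shares 1054 exonic bases with AC019080.1 on the same strand (mean 0.182 FPKM). On the opposite strand it shares 190 with AC079305.1 (mean 1.65 FPKM) and 54 with AGPS (mean 4.94 FPKM). The list's counts turned to 3 higher and 3 lower with total-read scaling and 4 higher and 3 lower with TPM scaling.

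Of 23 tested members (26 listed) of the RAS, RAF and MAP kinase cascades 4 rose and 4 fell, and the median log2 change was 0.01. The 34.8% called is near the 40.6% of all tested genes. NRAS, a RAS GTPase at the head of the ERK branch, averaged 8.99 ± 0.84 FPKM in siSGK1 and 6.82 ± 0.17 FPKM in siControl (log2 change 0.37, limma adjusted p = 0.00289), and the p38 kinase gene MAPK14 7.60 ± 0.28 FPKM in siSGK1 and 6.24 ± 0.18 FPKM in siControl (log2 change 0.27, adjusted p = 0.00378). MAPK8, one of the JNK genes whose products phosphorylate JUN, averaged 1.89 ± 0.14 FPKM in siSGK1 and 1.90 ± 0.03 FPKM in siControl (adjusted p = 0.966; chosen after its values were seen). The counts became 10 higher and 1 lower with total-read scaling and 12 higher and 0 lower with TPM scaling.

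Of 10 tested transcription factors of the FOS and JUN promoters 2 rose and none fell by limma (median log2 change 0.08), where 40.6% of all tested genes were called. At an unadjusted p below 0.05 there were 4 higher and 1 lower, by voom 4 higher and 0 lower, and with the other scalings 3 to 7 higher and 0 lower. ATF1, a cyclic AMP response element binding protein, averaged 5.90 ± 0.23 FPKM in siSGK1 and 4.39 ± 0.13 FPKM in siControl (log2 change 0.39, limma adjusted p = 0.000732). SRF, which occupies the serum response element of FOS, averaged 23.3 ± 1.3 FPKM in siSGK1 and 19.8 ± 0.35 FPKM in siControl (log2 change 0.22, adjusted p = 0.00834). ELK4, an ERK-regulated partner of SRF that shares 422 exonic bases with MFSD4A on the opposite strand, averaged 1.60 ± 0.17 FPKM in siSGK1 and 1.27 ± 0.13 FPKM in siControl and was not called (adjusted p = 0.0639).

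Of 10 tested genes (12 listed) for turnover of FOS and JUN protein or mRNA 3 rose and 1 fell, a share of 40% called that matches the background of 40.6%. Their median log2 change was 0.10, and the count became 8 higher and 0 lower with TPM scaling. GSK3B, a kinase that marks JUN protein for degradation, averaged 12.1 ± 0.64 FPKM in siSGK1 and 9.59 ± 0.26 FPKM in siControl (log2 change 0.31, limma adjusted p = 0.0021). The RNA decay factors ZFP36L1, at 28.8 ± 0.65 FPKM in siSGK1 and 24.3 ± 0.64 FPKM in siControl (log2 change 0.24, adjusted p = 0.00257), and HNRNPD, at 45.0 ± 0.54 FPKM in siSGK1 and 38.6 ± 0.43 FPKM in siControl (log2 change 0.22, adjusted p = 0.00266), bind AU-rich elements such as those of FOS mRNA.

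JUN and FOS were not alone among immediate early genes. The list used here leaves out all AP-1 members, of which 2 rose, 2 fell and 4 were tested but not called. Of 15 others tested (20 listed) 9 rose and none fell by limma, where 17.9% of all tested genes rose and 22.7% fell, with a median log2 change of 0.20 against -0.006 for all tested genes. With the other scalings 9 to 12 rose and 0 fell. At an unadjusted p below 0.05 and by voom on recovered reads, 9 rose and 1 fell. With a minimum of 5 FPKM 6 of 10 rose and 1 fell, and without a level filter 8 of 20 rose and 0 fell. The replicate block gave 8 higher and 0 lower. Leaving out siControl replicate 3 gave 7 higher and 0 lower, and leaving out siSGK1 replicate 4 gave 8 higher and 1 lower. CYR61, a matricellular protein gene, averaged 35.3 ± 2.4 FPKM in siSGK1 and 13.2 ± 2.0 FPKM in siControl (log2 change 1.39, SE 0.10, limma adjusted p = 2.95e-05). The zinc finger gene KLF6 averaged 4.17 ± 0.13 FPKM in siSGK1 and 2.56 ± 0.0074 FPKM in siControl (log2 change 0.61, adjusted p = 8.72e-05), and PHLDA1 8.78 ± 0.51 FPKM in siSGK1 and 5.37 ± 0.41 FPKM in siControl (log2 change 0.66, adjusted p = 0.00016). EGR1, the immediate early gene most often measured beside FOS, averaged 18.4 ± 1.2 FPKM in siSGK1 and 11.9 ± 1.1 FPKM in siControl (log2 change 0.61, adjusted p = 0.000387; chosen after its values were seen). The other 6 tested genes were not called.

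Of 14 tested genes (22 listed) that AP-1 is known to induce in growth and invasion, 2 rose and 5 fell (median log2 change -0.10). The 50% called is near the background of 40.6%, and the count was 2 higher and 2 lower under quantile normalization, 5 higher and 2 lower with total-read scaling and 6 higher and 1 lower with TPM scaling. AREG, an EGF receptor ligand, averaged 10.4 ± 0.22 FPKM in siSGK1 and 7.77 ± 0.44 FPKM in siControl (log2 change 0.40, limma adjusted p = 0.000612). MMP1, an interstitial collagenase and classic AP-1 target, averaged 1.85 ± 0.03 FPKM in siSGK1 and 2.89 ± 0.35 FPKM in siControl (log2 change -0.52, adjusted p = 0.00156). EZR, which links membrane to actin, averaged 72.6 ± 0.59 FPKM in siSGK1 and 89.3 ± 4.3 FPKM in siControl (log2 change -0.30, adjusted p = 0.00142), and its call was lost with TPM scaling (log2 change -0.09).

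Of 11 listed AP-1 bound genes of keratinocyte differentiation 8 were tested and all 8 fell, under each of the 4 scalings. Of all tested genes 22.7% fell as deposited, and the median log2 change of the list was -1.02. The list was chosen with earlier results of these data known. SPRR1A, SPRR1B, SPRR2A and SPRR3 are among the 8 and belong to the same gene family, so the 8 are not independent. KRT1, a keratin of differentiating keratinocytes, averaged 1.40 ± 0.06 FPKM in siSGK1 and 9.12 ± 0.58 FPKM in siControl (log2 change -2.34, SE 0.06, limma adjusted p = 8.93e-07). TGM1, which crosslinks the cornified envelope, averaged 80.1 ± 7.5 FPKM in siSGK1 and 155.4 ± 1.6 FPKM in siControl (log2 change -0.96, adjusted p = 2.57e-05). KRT6A averaged 329.4 ± 17.4 FPKM in siSGK1 and 609.9 ± 17.8 FPKM in siControl (log2 change -0.89, adjusted p = 1.39e-05), with some uncertainty because its near-identical copies may share reads. The epithelial marker sum, given at the outset and mostly keratin, was lower in siSGK1 as well, while EPCAM, CDH1 and TP63 were alike in the groups. The part of the marker sum in the AP-1 results was not tested.

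**Figure D5:**
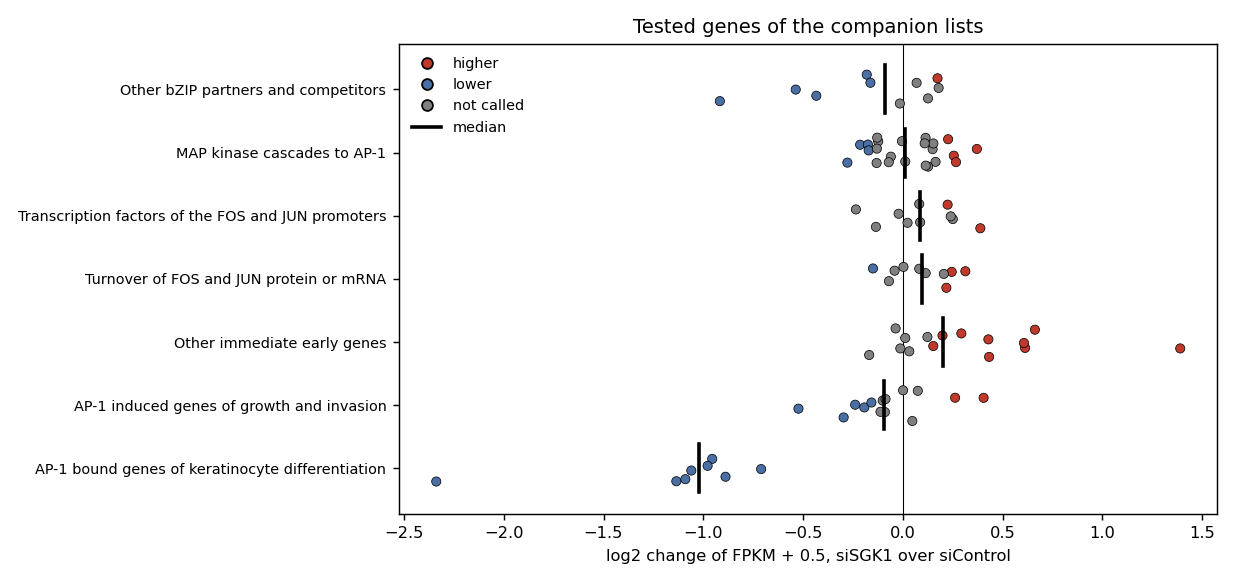
Log2 change (siSGK1 over siControl) of each tested gene in the 7 companion lists, with red points called higher, blue called lower and grey not called by limma, and a bar at each list's median. The other immediate early genes, a list without the AP-1 members, have a median of 0.20 with 9 of 15 higher. The keratinocyte differentiation genes have a median of -1.02 with 8 of 8 lower.

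The subunits also varied together between libraries of the same group. siControl replicate 2 had the highest siControl value for 8 of the 8 tested members, against 37.3% of all tested genes, and siSGK1 replicate 4 the highest siSGK1 value for 7 of the 8, against 31% of all. This feature was picked out after the values were seen and has no test.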

How the data were processed

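RNA of 6 ME180 libraries (3 siSGK1, 3 siControl) was sequenced, and the authors deposited FPKM values for 58302 genes. The submitters' processing notes name bcl2fastq 2.19, HISAT2 2.0.5, featureCounts 1.5.0-p3 and the build hg19, but the table's coordinates are those of GRCh38 for 97.53% of 58039 genes shared with GENCODE 29. The sources used here do not state strand or multimapping settings. From these values, log2(FPKM + 0.5) was fitted with limma 3.58.1 (R 4.3.3; empirical Bayes with a trend, two-sided) over the 11945 genes with a mean of at least 1 FPKM, all 6 libraries, group as the only term, and Benjamini-Hochberg adjustment, called below 0.05. Whole reads could be recovered: 100% of values above 0 were whole multiples of 1 read (tolerance 0.001). Alternatives were other pseudocounts, filters, quantile, total-read and TPM scaling, voom on recovered reads, a replicate block and leaving out each library. The code was tested on simulated data. The genes named were, by rule, the members, SGK1, up to 3 tested genes per list with the smallest p, and the 3 protein-coding genes whose log2 values correlated best with JUN, except where a choice after seeing values is stated; 1 gene that the rule names is not reported here. BATF3 and FOSB came from a fit without the level filter. The members and lists were chosen with earlier results of these data known. Promoters came from RefSeq (GRCh38.p14), with the first window listed for each gene. No set test was run.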

Additional observations from a re-analysis of the deposited data

How the results depend on the processing

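JUN and FOS kept their direction and call under every alternative that tested them, with ranges on leaving out 1 library of 0.619 to 0.737 and 0.473 to 0.667. For JUNB, not called as deposited, the log2 change was -0.166 and called with a minimum of 5 FPKM (limma adjusted p = 0.0352) and -0.167 and called by voom on recovered reads (limma adjusted p = 0.0177), it turned to 0.00123 under quantile normalization and 0.0373 under TPM scaling, and leaving out 1 library gave -0.223 to -0.12. TPM scaling also gave 0.215 for JUND and 0.339 for FOSL1, both then called, 0.0166 for FOSL2, 0.0418 for ATF3 and -0.192 for MAFF, not called. FOSL2 was -0.0462 and not called with total-read scaling. Leaving out 1 library gave -0.0274 to 0.0891 for JUND, which turned to -0.0274 without siSGK1 replicate 4, -0.0265 without siControl replicate 3 and -0.0263 without siControl replicate 4, and 0.0118 to 0.258 for FOSL1, -0.2 to -0.166 for FOSL2, -0.268 to -0.0717 for ATF3 and -0.419 to -0.291 for MAFF. The cause of these moves was not tested, beyond the shift of the median gene that each scaling brings. The number of genes called was 4852 as deposited, 3773 to 4345 on leaving out 1 library, 3286 with a minimum of 5 FPKM (6506 tested), 3764 without a level filter, 5379 by voom on recovered reads and 6815 with TPM scaling. For 22 genes named by rule in the lists or as the target, 321 of 325 repeats kept direction and call, 3 gained a call (all ELK4) and 1 lost it (EZR). The replicate block left 4560 genes and 4 members called. After removal of group means, same-numbered siSGK1 and siControl libraries correlated over the tested genes at 0.116, 0.0135 and -0.103 for replicates 2, 3 and 4. The labels do not say that the numbers pair the samples, and they were not taken to do so. With 3 libraries a group, the spread of FOSL1 left an interval of -0.12 to 0.42, and BATF3, with 2 to 7 reads per library, is limited by depth.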

Other observations

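After removal of group means, the log2 values of the tested AP-1 subunit genes correlated positively over the 6 libraries for 28 of 28 pairs of members, with r of 0.187 to 0.985 and a median of 0.572. The libraries share depth and scaling, and the pairs share genes. Pairs of other genes were not examined, so this is a description with no p and no background. Over the same 6 libraries, the genes whose level followed JUN most closely were HADH, a fatty acid oxidation enzyme, FBP1, a gluconeogenic enzyme, and ADM, the peptide hormone adrenomedullin, with Pearson r of 0.999, 0.999 and 0.998. They were selected for the highest r among all tested protein-coding genes, and the group difference enters each r. Such values do not by themselves show joint regulation with JUN. HADH measured 8.31, 8.45 and 8.60 FPKM in siSGK1 and 6.83, 6.63 and 6.25 FPKM in siControl. ADM measured 69.4, 73.4 and 73.7 FPKM in siSGK1 and 57.8, 56.4 and 53.4 FPKM in siControl. FBP1 measured 2.88, 2.99 and 3.11 FPKM in siSGK1 and 1.58, 1.39 and 1.16 FPKM in siControl. JUN over JUNB was 6.91% ± 0.44 in siSGK1 and 3.77% ± 0.23 in siControl, and FOS over FOSL1 was 59.7% ± 4.2 in siSGK1 and 43.4% ± 6.2 in siControl (SD, n = 3 each).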
